A study of Bombyx mori with 9 samples.

Results

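Silk gland transcripts of strain LAT51, reared at the cooler Philippine site, were compared with those of strain DMMMSU119, reared at the hotter site. The comparison used 6 of the 9 libraries of the series: LAT51 replicates 1, 2 and 4 and DMMMSU119 replicates 0, 2 and 4, chosen by their strain labels. The other strain of the series, also reared at the hotter site, took no part in it. All 6 libraries came from whole silk glands of the mulberry silkworm Bombyx mori at day 3 of instar 5, and each was made from 1 larva, so the spread between replicates includes differences between individuals. The study gives a longer larval duration for strains at the cooler site, so the same day need not be the same point of the instar. LAT51 larvae were reared at the site labelled CAR (Benguet), where the temperature was 23.9 °C, and DMMMSU119 larvae at the site labelled TCMO (Misamis Oriental), at 31.7 °C. The labels name no treatment and no transgene. The rearing facilities class LAT51 as a priority strain and DMMMSU119 as a poor performer. Each strain was sampled at a single site, so strain, temperature, humidity and every other feature of the site cannot be told apart, and "higher" or "lower" below refers to LAT51 relative to DMMMSU119 only. Values by library are listed for LAT51 replicates 1, 2 and 4 and then for DMMMSU119 replicates 0, 2 and 4.

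The silk gland is a pair of long secretory tubes. Its posterior part makes the fibroin core of the silk fibre from a heavy chain, a light chain and the linker protein P25, and its middle part makes the sericins, the glue proteins that coat the fibre. In the last instar its very large cells copy their genome repeatedly without dividing and devote most of their protein synthesis to silk. Heat shock proteins are the chaperones that insect cells make when proteins unfold in the heat.

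The libraries held between 4527847 and 11641130 counts, and the 10 genes with the most counts took 19.2 to 27.5% of the counts in LAT51 libraries and 31.9 to 40.7% in DMMMSU119 libraries. The study reports that, in its separate STAR alignment, a larger part of DMMMSU119 reads than of LAT51 reads mapped to several loci. What this contributes to the differences below was not tested. Pearson's r of log2 values between libraries was 0.86 to 0.94 within a strain (6 pairs) and 0.66 to 0.78 between strains (9 pairs). Of 7203 genes that passed the filter on low counts, 2319 (32.2%) differed at an adjusted p under 0.1 in edgeR's quasi-likelihood test with Benjamini-Hochberg adjustment, which is the call used throughout. LAT51 was higher for 1075 genes (14.9%) and lower for 1244 (17.3%), and 2165 of the calls (30.1% of genes tested) also changed by over 1 on the log2 scale, 977 higher (13.6%) and 1188 lower (16.5%). On the TMM scale described below, large differences were mostly decreases. Beyond a log2 fold change of 3 there were 59 higher and 428 lower genes. With libraries scaled by size alone, 4493 called genes lay above a log2 fold change of 1 and 475 below -1. Leaving out 1 library moved the number of calls to between 1004, without LAT51 replicate 2, and 2905, without DMMMSU119 replicate 0. Without DMMMSU119 replicate 2 there were 1277 calls.

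**Figure D1:**
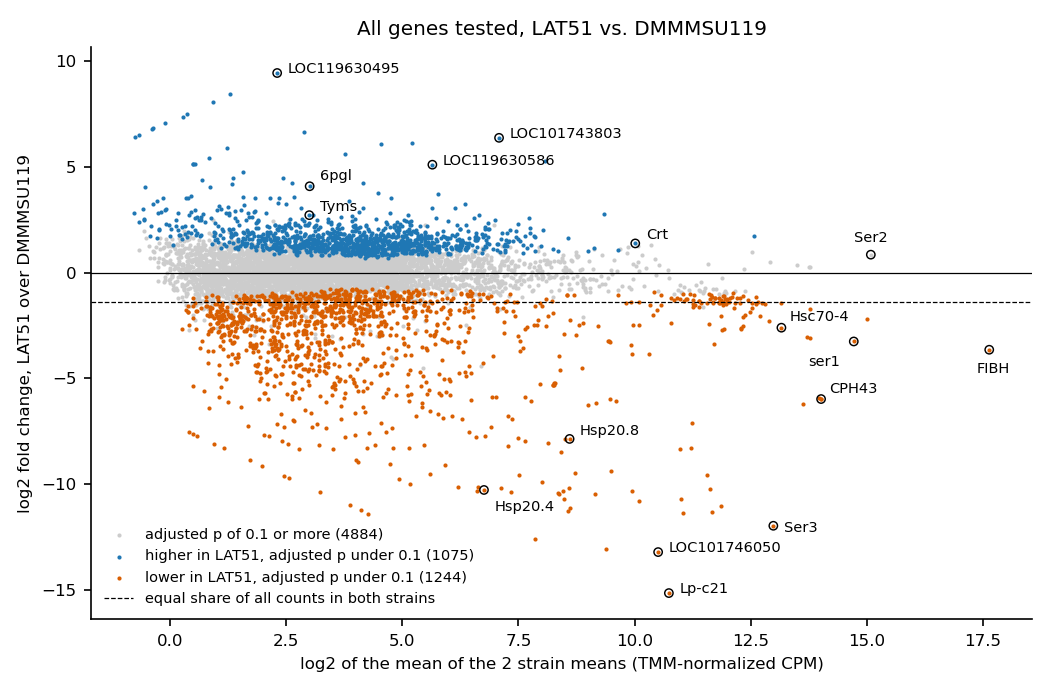
Each point is 1 of the 7203 genes tested, with the log2 of the mean normalized CPM of the 2 strains on the x axis and the log2 fold change of LAT51 over DMMMSU119 on the y axis. Colour marks the 1075 genes higher and the 1244 genes lower in LAT51, and the dashed line at -1.39 is where a gene with an equal share of all counts in both strains lies.

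The direction of a moderate change depended on the scaling. Expression levels are given as counts per 1000000 (CPM) after edgeR's TMM scaling, which sets the fold change of the typical gene near 0 (median log2 fold change 0.01). Its factors were 1.81, 1.58 and 1.5 for LAT51 and 0.70, 0.49 and 0.68 for DMMMSU119. When libraries were scaled by their size alone, log2 fold changes moved up by about 1.39, and 4757 genes were called higher and 492 lower. All 1075 genes called higher were also called higher on that scale, and 492 of the 1244 lower genes were also called lower. A decrease of less than 1.39 is therefore a decrease relative to other genes, not in the share of all RNA, and library-size values are given beside the list counts and beside named calls that they remove or reverse. Many genes that did not pass with TMM passed as higher by library size alone. On that scale 85.3% of genes tested had a positive log2 fold change, so a higher share of counts in LAT51 was the common case. The list counts below stand beside 14.9% of all genes tested called higher and 17.3% called lower with TMM. By library size alone the counterparts are 4757 and 492 of 7203 genes. In whole glands, fewer cells of a type and less RNA per cell cannot be told apart.

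DMMMSU119 replicate 0 stood apart from the other libraries in transcripts of neighbouring tissues. The list of 14 fat body markers, mostly storage and 30K lipoproteins, held 0.0545, 0.0349 and 0.0255% of the counts in LAT51, against 6.51, 1.35 and 0.270% in DMMMSU119. The shares did not overlap, and within DMMMSU119 they differed by over 20-fold. In the test 12 of the 14 were lower in LAT51 (median log2 fold change -7.69, all genes tested 0.01), 11 without DMMMSU119 replicate 0 or by library size alone and 8 without LAT51 replicate 2. The defining 30K gene Lp-c21 had 2, 1 and 0 counts in LAT51, against 28904, 14064 and 2666 in DMMMSU119. It was at least 11913-fold lower in LAT51, computed like every such bound here against a floor of 3 counts per library (adjusted p = 0.00123). The 1 higher marker was VG, which encodes the yolk precursor vitellogenin, at 5.75, 4.35 and 8.28 CPM in LAT51, against 0.474, 2.12 and 0 CPM in DMMMSU119 (log2 fold change 2.86, adjusted p = 0.0525), a call lost without any 1 of the LAT51 libraries.

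The 11 muscle markers held 0.030, 0.016 and 0.019% of the counts in LAT51, against 0.931, 0.0052 and 0.0072% in DMMMSU119, so the excess lay in DMMMSU119 replicate 0 alone. The muscle actin gene A1 had 2.45, 0.544 and 0.591 CPM in LAT51, against 6534, 10.4 and 5.46 CPM in DMMMSU119, and its log2 fold change was -10.81 with that library and -2.67 without it, and it no longer passed without LAT51 replicate 2 or 4 (-10.45 and -10.53). Of 8 muscle markers tested 4 were lower in LAT51, all 4 also without DMMMSU119 replicate 0 and by library size alone, where 2 others were higher, and none without LAT51 replicate 2. The haemocyte markers PPO1 and PPO2, prophenoloxidase genes, did not pass the test, with log2 fold changes of 0.03 and 0.24, and passed as higher by library size alone (1.34 and 1.67). Among all genes called lower in LAT51, 274 of 1244 (22%) followed the order of the fat body markers in DMMMSU119, highest in replicate 0 and lowest in replicate 4.

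**Figure D2:**
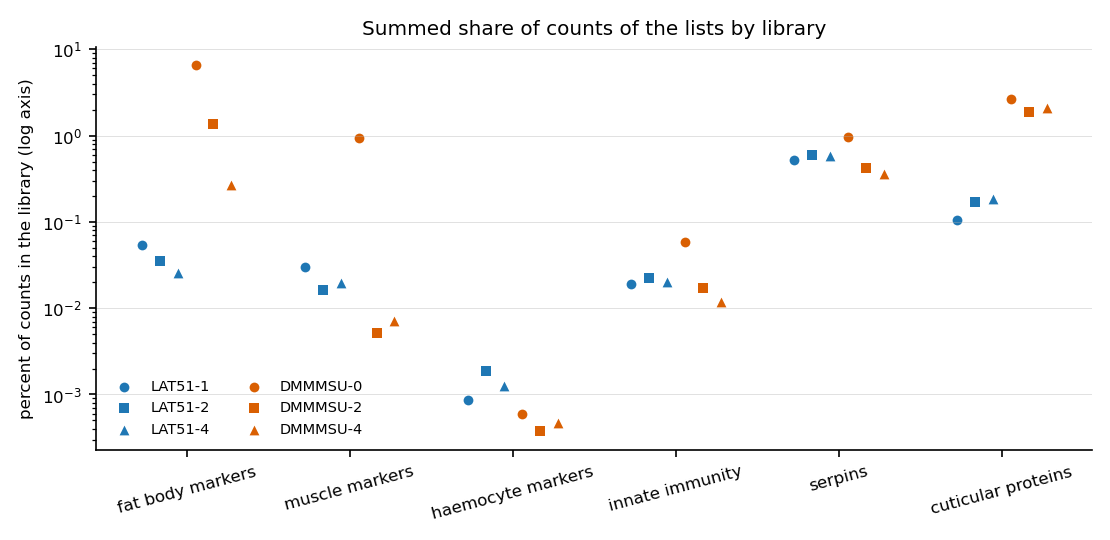
Summed share of counts, in percent on a log axis, of the fat body, muscle, haemocyte, innate immunity, serpin and cuticular protein lists in each of the 3 LAT51 and the 3 DMMMSU119 libraries. Fat body markers took 6.51% of the counts in DMMMSU119 replicate 0 and at most 0.0545% in any LAT51 library, and the muscle excess is in DMMMSU119 replicate 0 only.

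Silk genes took a smaller share of the LAT51 libraries. The 3 fibroin and 3 sericin genes together held 19.1, 12.3 and 14.5% of the counts in LAT51, against 24.4, 36.0 and 33.9% in DMMMSU119, and the groups did not overlap. The means were 15.3 ± 3.45% in LAT51 and 31.4 ± 6.14% in DMMMSU119 (SD, n = 3 each), a difference of -16.1 percentage points (two-sided exact permutation test, p = 0.1, the smallest p that 3 against 3 allows). In the test across genes 5 of the 6 were lower in LAT51 and none was higher, also when any 1 library was left out. The median log2 fold change of the 6 was -2.73, against 0.01 over all genes tested.

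The fibroin genes moved together but by different amounts. FIBH, the fibroin heavy chain, held 5.49, 4.68 and 4.53% of the counts in LAT51, against 16.4, 25.8 and 24.9% in DMMMSU119. Its log2 fold change was -3.64 ± 0.40 (SE, adjusted p = 0.00181) and -2.19 by library size alone. Fib-l, the light chain, held 1.81, 1.96 and 1.86% in LAT51, against 2.36, 3.41 and 3.92% in DMMMSU119 (log2 fold change -2.21 ± 0.38, adjusted p = 0.00793). P25, the linker, held 0.306, 0.394 and 0.257% in LAT51, against 0.517, 0.461 and 0.570% in DMMMSU119 (log2 fold change -2.10 ± 0.35, adjusted p = 0.00746). No LAT51 library reached the lowest DMMMSU119 library for any of the 3 genes, and by library size alone Fib-l and P25 stood at -0.79 and -0.70. The LAT51 libraries were close to each other in fibroin share, at 7.60, 7.04 and 6.65%, while DMMMSU119 replicate 0, at 19.3%, lay below replicates 2 and 4, at 29.6 and 29.4%.

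The sericin genes did not share a direction. Ser3, a sericin of the anterior part of the middle gland, had 18, 46 and 57 counts in LAT51, against 27516, 123509 and 102589 counts in DMMMSU119, which is 1.52, 2.5 and 8.42 CPM in LAT51, against 6525, 26134 and 16012 CPM in DMMMSU119. Its log2 fold change of -11.95 ± 1.10 was the lowest of the silk genes (adjusted p = 0.000961), and it was -13.07 without LAT51 replicate 4. The gene listed as LOC101740082, whose synonym is ser1, the main sericin of the cocoon, held 0.720, 0.237 and 1.47% of the counts in LAT51, against 2.78, 3.62 and 2.19% in DMMMSU119 (log2 fold change -3.25 ± 0.71, adjusted p = 0.0184, and -4.25 without LAT51 replicate 4). Ser2, which is best known from the silk spun before the cocoon, went the other way in share of counts, with 10.7, 4.99 and 6.41% in LAT51, against 1.91, 1.43 and 1.21% in DMMMSU119. On the TMM scale it had 59383, 31600 and 42907 CPM in LAT51, against 27489, 29176 and 17928 CPM in DMMMSU119. The groups did not overlap on either scale, but the difference passed the test by library size alone (log2 fold change 2.28, adjusted p = 0.00252) and not with TMM (0.84 ± 0.38, adjusted p = 0.138). Sericins summed to 11.4, 5.23 and 7.88% of the counts in LAT51, against 5.15, 6.33 and 4.49% in DMMMSU119, and these ranges overlapped.

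**Figure D3:**
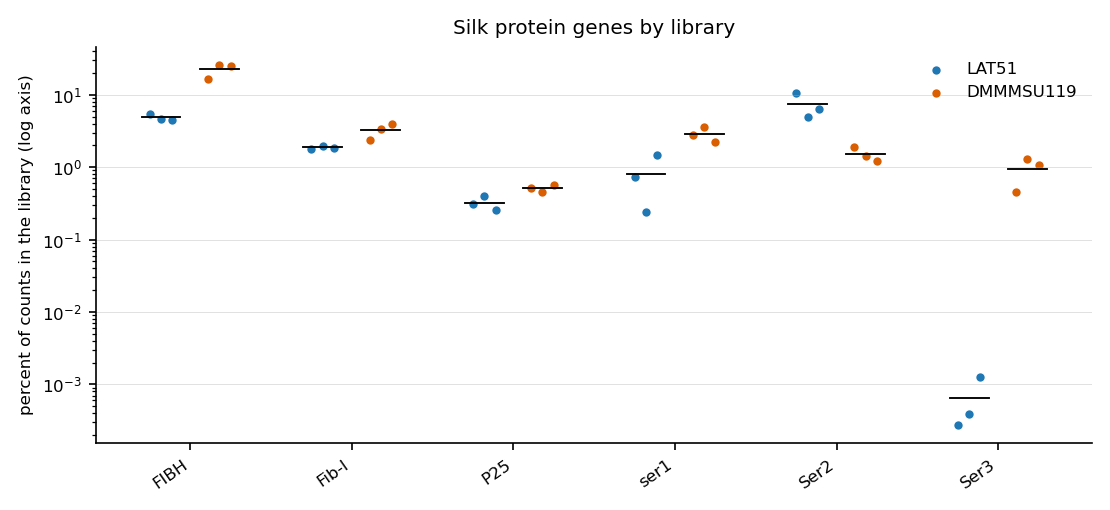
Share of counts, in percent on a log axis, of the 6 silk genes, with LAT51 left of DMMMSU119 for each gene, where dots are libraries and the bar is the mean of 3. The 5 genes other than Ser2 lie lower in every LAT51 library, and the log2 fold change of Ser3 was -10.53 by library size alone and -11.95 with TMM.

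Genes for transcription factors that act on silk genes were also examined. Of 7 members 4 were tested and 1 was called: dimm, a basic helix-loop-helix factor of secretory cells, at 5.58, 1.69 and 2.07 CPM in LAT51, against 4.27, 16.1 and 19.8 CPM in DMMMSU119. The groups overlapped through LAT51 replicate 1 and DMMMSU119 replicate 0 (log2 fold change -2.11 ± 0.66, adjusted p = 0.0547), and the call was lost without LAT51 replicate 2, LAT51 replicate 4, DMMMSU119 replicate 2 or DMMMSU119 replicate 4 and by library size alone (-0.63, adjusted p = 0.42). The forkhead factor gene SGF1 had a log2 fold change of -0.16, sage of -0.60 and Fmbp-1, a fibroin modulator binding protein gene, of 0.26, none of which passed the test. By library size alone Fmbp-1 (1.65) and sage (0.83) passed as higher.

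Small heat shock protein genes were lower in LAT51 with 1 exception. These proteins hold unfolding proteins in solution until other chaperones refold them. Of 6 tested 5 were lower in LAT51 and none was higher, where 17.3% of all genes tested were lower, and the same count was lower under each of the 15 alternative settings, with Hsp21.4 higher by library size alone. The list had a median log2 fold change of -4.77. Hsp20.4 was nearly silent in LAT51, at 2, 3 and 1 counts, against 894, 1375 and 935 counts in DMMMSU119, which puts it at least 754-fold lower (adjusted p = 9.51e-05). Its counts differ by at most 25% from those of LOC119630892 in each library, so reads may be shared between near-identical copies, and LOC119630892 itself was at least 693-fold lower. Hsp20.8 had 3.72, 2.88 and 3.4 CPM in LAT51, against 797, 988 and 534 CPM in DMMMSU119 (log2 fold change -7.85 ± 0.50, adjusted p = 0.000234), with LOC119630891 as a similar near-equal copy.

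The remaining small heat shock genes differed by less. Hsp20.1 had 0.930, 1.79 and 2.22 CPM in LAT51, against 98.9, 51.0 and 49.9 CPM in DMMMSU119, a log2 fold change of -5.35 ± 0.50. Hsp23.7 had 1.44, 2.01 and 2.22 CPM in LAT51, against 32.5, 47.8 and 23.3 CPM in DMMMSU119 (-4.19 ± 0.40). Hsp19.9 had 13.9, 8.16 and 12.4 CPM in LAT51, against 63.1, 122 and 90.2 CPM in DMMMSU119 (-3.0 ± 0.39). In all 3 genes the strains were far apart relative to their replicates (adjusted p = 0.00107, 0.00111 and 0.00318 in the order given). The exception was Hsp21.4, at 647, 751 and 480 CPM in LAT51, against 881, 585 and 796 CPM in DMMMSU119, where the groups overlapped (log2 fold change -0.27 ± 0.36, adjusted p = 0.619) and library size alone turned the sign (1.09, adjusted p = 0.0422). In the reference gene order Hsp20.8 lies next to Hsp20.4 and Hsp23.7 next to Hsp20.1, and no tested gene lies between Hsp19.9 and Hsp20.8.

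Among the Hsp70 and Hsp90 chaperones, which refold proteins with the use of ATP, the inducible genes were lower in LAT51. The gene listed as LOC733093, with the synonym BmHsp70, had 2, 0 and 1 counts in LAT51, against 134, 524 and 103 counts in DMMMSU119, at least 185-fold lower (adjusted p = 0.00272). Hsp70 had 1, 0 and 0 counts in LAT51, against 22, 83 and 22 counts in DMMMSU119, at least 30.5-fold lower (adjusted p = 0.00384). Both lie in 1 stretch of 6 neighbouring tested genes that were all lower in LAT51. The constitutive cognate Hsc70-4 had 2672, 1890 and 3198 CPM in LAT51, against 8782, 26656 and 11715 CPM in DMMMSU119, with a log2 fold change of -2.60 ± 0.51 (adjusted p = 0.0126) and -1.11 by library size alone (adjusted p = 0.0205). DMMMSU119 replicate 2 was the highest library for each of these 3 genes, and all 3 were lower when any 1 library was left out (Hsc70-4 at -1.99 without DMMMSU119 replicate 2).

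Other members of this list of 9, of which 8 were tested, moved little or up. Hsp90, the chaperone of kinases and receptors, had 758, 773 and 793 CPM in LAT51, against 461, 362 and 215 CPM in DMMMSU119 (log2 fold change 1.16 ± 0.39, adjusted p = 0.0666). Hsp70-14 had 35.3, 62.5 and 47.7 CPM in LAT51, against 33.4, 10.8 and 16.4 CPM in DMMMSU119 (1.27 ± 0.46, adjusted p = 0.0804). Every LAT51 library lay above every DMMMSU119 library for both, yet both calls were lost when any library other than DMMMSU119 replicate 0 was left out. The co-chaperone genes Cdc37 (-0.59) and STIP (0.74) and the heat shock factor gene HSFd (-0.60) did not pass the test. By library size alone the list had 4 higher and 3 lower genes, with STIP among the higher ones (2.14). Of 23 tested DnaJ (Hsp40) genes, which encode partners of Hsp70, 4 were higher and none was lower (median 0.45). Among all genes tested 14.9% were higher. By library size alone 20 of the DnaJ genes were higher, where 4757 of all 7203 genes were. With TMM, 2 to 5 were higher when 1 library was left out. DnaJ-3 had 113, 135 and 144 CPM in LAT51, against 61.9, 29.4 and 37.3 CPM in DMMMSU119 (log2 fold change 1.61 ± 0.38, adjusted p = 0.0239).

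**Figure D4:**
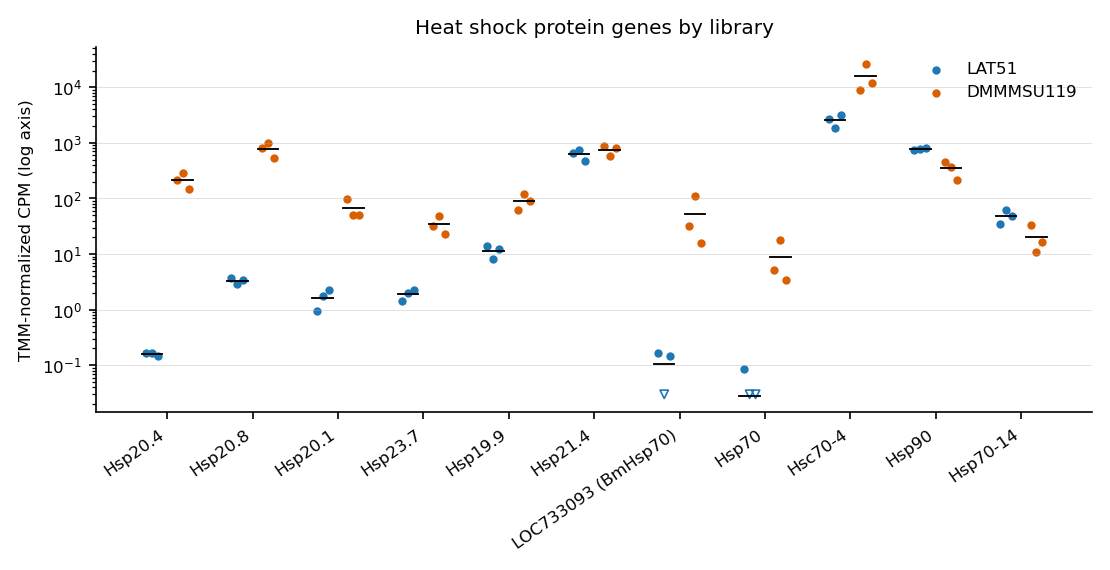
Normalized level of the heat shock protein genes on a log axis, with LAT51 left of DMMMSU119, where dots are libraries, bars are means of 3 and open triangles mark libraries with 0 counts. Small heat shock genes other than Hsp21.4 and the inducible Hsp70 genes lie far lower in LAT51, and Hsp90 lies slightly higher.

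Chaperones of the endoplasmic reticulum, where silk proteins are folded before export, were mostly higher in LAT51, unlike the cytosolic heat shock genes. Of 7 members 4 were higher and 1 lower (median log2 fold change 1.01), and 5 were higher and none lower by library size alone. Their summed share was 0.958, 0.671 and 0.683% of the counts in LAT51, against 0.210, 0.097 and 0.166% in DMMMSU119, with no overlap. Ppib, a prolyl isomerase gene, had 281, 300 and 237 CPM in LAT51, against 126, 71.3 and 91.5 CPM in DMMMSU119 (log2 fold change 1.5 ± 0.37, adjusted p = 0.0275). Crt, for the calcium-binding chaperone calreticulin, had 1735, 1121 and 1622 CPM in LAT51, against 798, 433 and 495 CPM in DMMMSU119 (1.38 ± 0.40, adjusted p = 0.0436). ERp57, a disulfide isomerase gene, changed by 1.08 ± 0.34 (adjusted p = 0.0567).

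The gene listed as HSP70, the reticulum chaperone GRP78, had 927, 489 and 643 CPM in LAT51, against 372, 330 and 322 CPM in DMMMSU119 (log2 fold change 1.01 ± 0.38, adjusted p = 0.0874). Ero1, the oxidase that recharges disulfide isomerases, had 16.7, 16.2 and 22.3 CPM in LAT51, against 26.6, 38.7 and 45.1 CPM in DMMMSU119, which was lower with TMM (-1.0 ± 0.32, adjusted p = 0.0579) and of the opposite sign by library size alone (0.39). When any library other than DMMMSU119 replicate 0 was left out, 1 member of the list was still called higher. Ppib lost its call without LAT51 replicate 2, Crt without LAT51 replicate 1 or 4 or DMMMSU119 replicate 2 or 4, and ERp57 and HSP70 without any library other than DMMMSU119 replicate 0. Of 18 tested genes for translocation, coats and Rab GTPases 1 was higher and 1 lower (median 0.20), while by library size alone 15 were higher and none lower (median 1.57). Their summed share was 0.402, 0.328 and 0.295% of the counts in LAT51, against 0.151, 0.0891 and 0.130% in DMMMSU119, without overlap. By library size alone 85.3% of all genes tested had a positive log2 fold change, so the higher share does not set these genes apart. ERD2, the receptor that returns escaped reticulum proteins, was higher (1.35 ± 0.42, adjusted p = 0.053, lost without LAT51 replicate 1 or 2 or DMMMSU119 replicate 2 or 4) and Rab11 was lower (-1.88 ± 0.40, adjusted p = 0.0174, and -0.40 by library size alone).

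Genes for cytosolic ribosomal proteins were lower in LAT51 relative to the typical gene, while their share of all counts overlapped between strains. Of 81 tested 59 were lower and 3 higher (median log2 fold change -1.22), while by library size alone 4 were lower and 8 higher (median 0.18). The summed share was 22.7, 27.7 and 31.9% of the counts in LAT51, against 24, 27.6 and 24.2% in DMMMSU119, and these ranges overlapped. The small subunit had 29 of 32 lower and the large subunit 30 of 49. The count of lower genes depended on single libraries, at 20 without LAT51 replicate 1, 9 without LAT51 replicate 2 and 18 without DMMMSU119 replicate 2, and between 41 and 58 without each of the other 3 libraries. RpLP2, a protein of the stalk that binds elongation factors, had 2311, 2502 and 2868 CPM in LAT51, against 8299, 19009 and 10773 CPM in DMMMSU119 (-2.31 ± 0.41, adjusted p = 0.00936), and it was 1 of those also lower by library size alone (-0.85, adjusted p = 0.019). Among the 3 higher genes, which include RpL20 (1.16) and RpL7Ae (1.53), the smallest adjusted p was that of LOC100101172, with the synonym RpL24. It had 4.90, 4.68 and 4.29 CPM in LAT51, against 0, 0 and 0.156 CPM in DMMMSU119, at least 7.64-fold higher (adjusted p = 0.00277). LOC100101172 is not annotated as protein-coding, and another gene of the list, LOC692701, has the same synonym. All 3 higher genes were weakly expressed for this list. Their mean LAT51 levels were 44.3 (RpL20), 222 (RpL7Ae) and 4.62 CPM (LOC100101172), against 2560.5 CPM for RpLP2.

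Translation factors followed the same pattern. Of 20 tested 6 were lower and none higher (median log2 fold change -0.55), against 11 higher and none lower by library size alone. EF1a, which brings aminoacyl-tRNA to the ribosome, had 6353, 5802 and 7761 CPM in LAT51, against 14695, 30974 and 18918 CPM in DMMMSU119 (-1.70 ± 0.39, adjusted p = 0.0229, and -0.25 by library size alone), and it was not called without LAT51 replicate 2. The count of lower genes was 8 without DMMMSU119 replicate 0, none without LAT51 replicate 2, and 2 or 3 without each of the other libraries. Mitochondrial ribosomal protein genes differed from the cytosolic ones in sign, with 4 of 10 higher and 1 lower (median 1.07), 9 higher and none lower by library size alone. The count of higher genes was 9 without DMMMSU119 replicate 0, 1 without LAT51 replicate 2 or DMMMSU119 replicate 4, and 2 without LAT51 replicate 4 or DMMMSU119 replicate 2. mRpS12 had 26.6, 21.2 and 20.2 CPM in LAT51, against 9.96, 4.23 and 7.02 CPM in DMMMSU119 (1.68 ± 0.37, adjusted p = 0.0194).

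DNA replication genes were higher in LAT51. Of 14 tested 10 were higher and none was lower, where 14.9% of all genes tested were higher, and the median log2 fold change was 1.59. All 14 were higher by library size alone. The list held 0.057, 0.056 and 0.053% of the counts in LAT51, against 0.011, 0.004 and 0.006% in DMMMSU119, without overlap. Tyms, thymidylate synthase, which makes the DNA base thymine in its nucleotide form, had 17.2, 11.7 and 12.7 CPM in LAT51, against 2.85, 1.48 and 2.03 CPM in DMMMSU119 (2.71 ± 0.39, adjusted p = 0.00438). RnrS, the small subunit of ribonucleotide reductase, had 35.2, 20.3 and 35.9 CPM in LAT51, against 8.54, 5.29 and 6.24 CPM in DMMMSU119 (2.19 ± 0.36, adjusted p = 0.00709).

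Genes of several replication roles were among the calls. The single-strand binding protein genes Rpa1, Rpa2 and Rpa3 were all higher, with Rpa1 at 38.4, 47.1 and 52.0 CPM in LAT51, against 16.8, 5.08 and 8.90 CPM in DMMMSU119 (log2 fold change 2.16 ± 0.45, adjusted p = 0.0154). Pcna, the sliding clamp, had 58.6, 78.6 and 74.2 CPM in LAT51, against 34.1, 12.7 and 12.2 CPM in DMMMSU119 (1.85 ± 0.46, adjusted p = 0.0289). The origin licensing gene Cdt1 (1.66), its inhibitor BmGEMININ (1.53), the topoisomerase gene TOP2 (1.65) and the clamp loader gene RFC40 (1.14) also passed. Mcm7 (0.70), ORC1 (0.86), ORC5 (0.36) and And1 (0.81), for the helicase, origin recognition and fork proteins, did not. The count of higher members was 6 without LAT51 replicate 2 and 7 to 12 without each of the other libraries.

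Single genes of sugar metabolism differed strongly. Of 7 tested genes of glycolysis and the pentose phosphate pathway 1 was higher and 1 lower, with a median log2 fold change of -0.83. By library size alone the calls were also 1 and 1 (median 0.50). 6pgl, for the 6-phosphogluconolactonase of the pentose phosphate pathway, had 22, 11.7 and 11.7 CPM in LAT51, against 1.42, 1.06 and 0.312 CPM in DMMMSU119. Its log2 fold change was 4.07 ± 0.57 (adjusted p = 0.00392), and it was higher under all alternatives. Ldh, lactate dehydrogenase, had 0.338, 0.652 and 2.66 CPM in LAT51, against 17.3, 4.02 and 49.3 CPM in DMMMSU119 (-4.42 ± 1.03, adjusted p = 0.0235), with -5.59 without LAT51 replicate 4 and -3.25 without DMMMSU119 replicate 4. The other 5 tested genes of this list did not pass the test. Of 8 tested oxidative phosphorylation genes, Surf1 and Ndufs8, an assembly factor and a complex I subunit, were higher by 1.22 and 1.01 on the log2 scale (adjusted p = 0.0371 and 0.0731) and the list median was -0.09, while by library size alone 6 of the 8 were higher and none lower (median 1.2). Surf1 was not called without LAT51 replicate 4 or DMMMSU119 replicate 2, nor Ndufs8 without LAT51 replicate 1 or 2 or DMMMSU119 replicate 2 or 4.

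Detoxification enzymes differed by family. UDP-glucosyltransferases, which attach glucose to hormones, pigments and plant compounds, had 9 of 14 tested genes lower in LAT51 and none higher (median log2 fold change -2.37), with 8 or 9 lower when any 1 library was left out and 6 lower and 3 higher by library size alone. The summed share of the family went the other way, without overlap. It was 0.204, 0.251 and 0.241% of the counts in LAT51, against 0.142, 0.0703 and 0.137% in DMMMSU119. UGT48C1 had 0.169, 0.109 and 0 CPM in LAT51, against 23, 62.4 and 27.3 CPM in DMMMSU119, at least 131-fold lower (adjusted p = 0.000681). UGT41A2 had 0.930, 0 and 0.443 CPM in LAT51, against 32.5, 34.5 and 37.8 CPM in DMMMSU119 (-6.33 ± 0.86, adjusted p = 0.00358). UGT40A1 had 6.76, 7.50 and 7.09 CPM in LAT51, against 32.7, 98.2 and 122 CPM in DMMMSU119 (-3.56 ± 0.51, adjusted p = 0.00413). For all 9 lower genes the groups did not overlap, and none of the 9 followed the fat body order within DMMMSU119. UGT33K1, UGT33D5, UGT33D6 and the gene listed as LOC732962, whose synonym is UGT33D4, follow each other in the gene order when only tested genes are counted, and were all lower, with log2 fold changes of -3.69, -2.09, -4.51 and -1.63, UGT33D5 and LOC732962 without passing the test by library size alone.

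Glutathione S-transferases were split, with 4 of 14 tested lower and 1 higher, and 2 lower and 8 higher by library size alone. The higher gene, LOC101746194, with the synonym GSTu2, had 29.5, 21.8 and 44.3 CPM in LAT51, against 10.9, 4.87 and 10.1 CPM in DMMMSU119 (log2 fold change 1.88 ± 0.42, adjusted p = 0.0209). GSTs1 had 2.28, 0.326 and 0.443 CPM in LAT51, against 266, 15 and 5.15 CPM in DMMMSU119, with a log2 fold change of -6.52 ± 1.62 (adjusted p = 0.0289), and -3.25 without DMMMSU119 replicate 0, and it did not pass without LAT51 replicate 2 (-6.07). The count of lower genes was 1 without LAT51 replicate 2 and 2 without DMMMSU119 replicate 2. Cat, for catalase, which breaks down hydrogen peroxide, had 25.2, 10 and 17.3 CPM in LAT51, against 211, 76.6 and 37.5 CPM in DMMMSU119 (-2.63 ± 0.66, adjusted p = 0.0301, and -1.68 without DMMMSU119 replicate 0), and it did not pass by library size alone (-1.27, adjusted p = 0.13). Like 3 of the 4 lower glutathione S-transferases, Cat followed the fat body order in DMMMSU119, and the part of fat body RNA in these results was not tested. Of 44 cytochrome P450 genes 8 had enough counts to be tested, and CYP340C1 was the 1 called, higher by 1.49 (adjusted p = 0.0774), a call lost without each library except DMMMSU119 replicate 0, and by library size alone 4 were higher.

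Genes of the 2 hormones that time the moults changed in both directions, with 3 of 16 tested higher and 8 lower (median log2 fold change -1.18), and 6 higher and 4 lower by library size alone. Hr3, a nuclear receptor that ecdysone induces, had 10.6, 14.0 and 6.21 CPM in LAT51, against 1.66, 0.846 and 0.780 CPM in DMMMSU119 (3.25 ± 0.51, adjusted p = 0.00574). Kr-h1, the early response gene of juvenile hormone, had 3.72, 2.56 and 1.33 CPM in LAT51, against 0.474, 0 and 0.156 CPM in DMMMSU119, at least 4.19-fold higher (adjusted p = 0.0213). E74, another ecdysone response gene, had 5.49, 4.51 and 4.43 CPM in LAT51, against 10.4, 45.5 and 31.5 CPM in DMMMSU119 (-2.60 ± 0.51, adjusted p = 0.0136). These 3 response genes did not overlap between strains. The ecdysone receptor genes EcR and USP and the response gene E75 were lower with TMM, with log2 fold changes of -1.29, -1.36 and -1.07, and turned to 0.10, 0.06 and 0.38 by library size alone.

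Of 5 tested genes that make or break down juvenile hormone 3 were lower and 2 were not called, and of 3 tested genes that bind it or respond to it 1 was lower and 1 higher. Jheh2, an epoxide hydrolase of the hormone, had 8.96, 10.7 and 13.6 CPM in LAT51, against 47.0, 29.2 and 22 CPM in DMMMSU119 (log2 fold change -1.56 ± 0.37, adjusted p = 0.0249), and -0.21 by library size alone. jhe1, an esterase gene, had 1.69, 1.3 and 0.296 CPM in LAT51, against 19, 6.56 and 3.43 CPM in DMMMSU119 (-3.06 ± 0.76, adjusted p = 0.0288, and -2.10 without DMMMSU119 replicate 0). hJHBP, the carrier of the hormone in haemolymph, had 2.11, 0.0544 and 0 CPM in LAT51, against 74.2, 15.7 and 4.84 CPM in DMMMSU119 (-5.38 ± 1.41, adjusted p = 0.0332), and -3.73 without DMMMSU119 replicate 0, -9.20 without LAT51 replicate 1 and -4.79, not passing, without LAT51 replicate 2. All 3 genes have the DMMMSU119 order of the fat body markers, whose part in these values was not tested. The lower count of the whole hormone list was 3 without LAT51 replicate 2 and 4 without DMMMSU119 replicate 2.

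Most tested innate immunity genes were lower in LAT51, at low levels. The summed share of the list was 0.0191, 0.0226 and 0.0203% of the counts in LAT51, against 0.0589, 0.0172 and 0.0117% in DMMMSU119. In this sum only DMMMSU119 replicate 0 lay above the LAT51 libraries. Of 49 members 18 were tested, of which 15 were lower and none higher (17.3% of all genes tested were lower), with a median log2 fold change of -3.49 and 11 to 14 lower when any 1 library was left out. By library size alone 11 were lower and 3 higher. All 8 tested recognition genes were lower, at a median of -5.77. BGRP1, which binds beta-glucan of fungal walls, had 0.422, 0.217 and 0.296 CPM in LAT51, against 61.2, 11.4 and 2.97 CPM in DMMMSU119 (-6.30 ± 1.17, adjusted p = 0.0109), and -4.46 without DMMMSU119 replicate 0. NimB had 2.11, 0.707 and 0.591 CPM in LAT51, against 201, 42.1 and 9.21 CPM in DMMMSU119 (-6.17 ± 1.18, adjusted p = 0.0122, and -4.43 without DMMMSU119 replicate 0). Lzm, lysozyme, had 3.97, 0.163 and 0.591 CPM in LAT51, against 83.9, 36.6 and 13.7 CPM in DMMMSU119 (-4.81 ± 1.10, adjusted p = 0.0225, and -3.96 without DMMMSU119 replicate 0). The DMMMSU119 libraries spanned over 6-fold for each of these genes, and LAT51 lay below all of them. Of the 15 lower genes 13 had the fat body order within DMMMSU119, against 22% of all lower genes, and whether they came from fat body tissue was not tested.

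The smallest adjusted p of the immunity list belonged to SPZ1, a Spätzle ligand of the Toll receptor, which does not have that order, with 1.10, 0.489 and 1.03 CPM in LAT51, against 8.06, 12.9 and 5.77 CPM in DMMMSU119 (log2 fold change -3.37 ± 0.51, adjusted p = 0.00536). Defensin (0.52, adjusted p = 0.319) and the NF-kappaB factor genes Rel (-0.29) and Dorsal (0.86) did not pass the test, and these were the 3 higher by library size alone (1.89, 1.10 and 2.28).

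Serpins, inhibitors of serine proteases, had 8 of 14 tested genes lower and 1 higher (median log2 fold change -2.20), with 6 to 9 lower when any 1 library was left out, and 6 lower and 3 higher by library size alone. serpin-15 had 1.01, 2.77 and 4.58 CPM in LAT51, against 67.3, 493 and 356 CPM in DMMMSU119 (-6.79 ± 0.94, adjusted p = 0.00384). serpin-28 had 15.7, 11.9 and 52.6 CPM in LAT51, against 297, 495 and 240 CPM in DMMMSU119 (-3.69 ± 0.67, adjusted p = 0.00965, and -4.74 without LAT51 replicate 4). serpin-18 had 828, 1064 and 1034 CPM in LAT51, against 7825, 5176 and 2692 CPM in DMMMSU119 (-2.42 ± 0.46, adjusted p = 0.0118). None of the 3 overlapped between strains, and serpin-15 and serpin-28 were highest in DMMMSU119 replicate 2, not in replicate 0 where fat body markers peaked. Of the 8 lower serpins 4 had the fat body order, serpin-18 among them, and the part of fat body RNA in these values was not tested. serpin-9 did peak there, at 5.07, 0.272 and 0.296 CPM in LAT51, against 1733, 281 and 14.4 CPM in DMMMSU119 (-8.46 ± 2.0, and -6.23 without DMMMSU119 replicate 0). The 1 higher gene, serpin-21, had 2.62, 5.55 and 4.14 CPM in LAT51, against 1.19, 1.06 and 0.780 CPM in DMMMSU119 (2.04 ± 0.48, adjusted p = 0.025), a call lost without LAT51 replicate 2.

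Of 206 cuticular protein genes 92 had no counts in these libraries and 28 had enough to be tested. LAT51 was lower for 9 and higher for 2 (8 and 2 by library size alone), with a median log2 fold change of -2.64, but without DMMMSU119 replicate 0 there were 6 lower and 5 higher with a median of 0.17, and without DMMMSU119 replicate 4 there were 15 lower. The number of lower genes was 5 or 6 without each of the LAT51 libraries. CPH43 had 362, 551 and 645 CPM in LAT51, against 34048, 37395 and 26247 CPM in DMMMSU119, where it made up 1.78 to 2.37% of all counts (-5.97 ± 0.44, adjusted p = 0.000385). Its counts differ by at most 25% from those of LOC101737792, a neighbouring non-coding gene in the RefSeq annotation, and of LOC119628831, so how its reads divide between them is uncertain. CPR90 had 8.11, 142 and 348 CPM in LAT51, against 2344, 870 and 3934 CPM in DMMMSU119 (-3.84 ± 1.16, adjusted p = 0.0485). CPR122 was the clearest exception, with 99.6, 118 and 85.4 CPM in LAT51, against 13.3, 2.54 and 7.34 CPM in DMMMSU119 (3.72 ± 0.57, adjusted p = 0.00548).

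**Figure D5:**
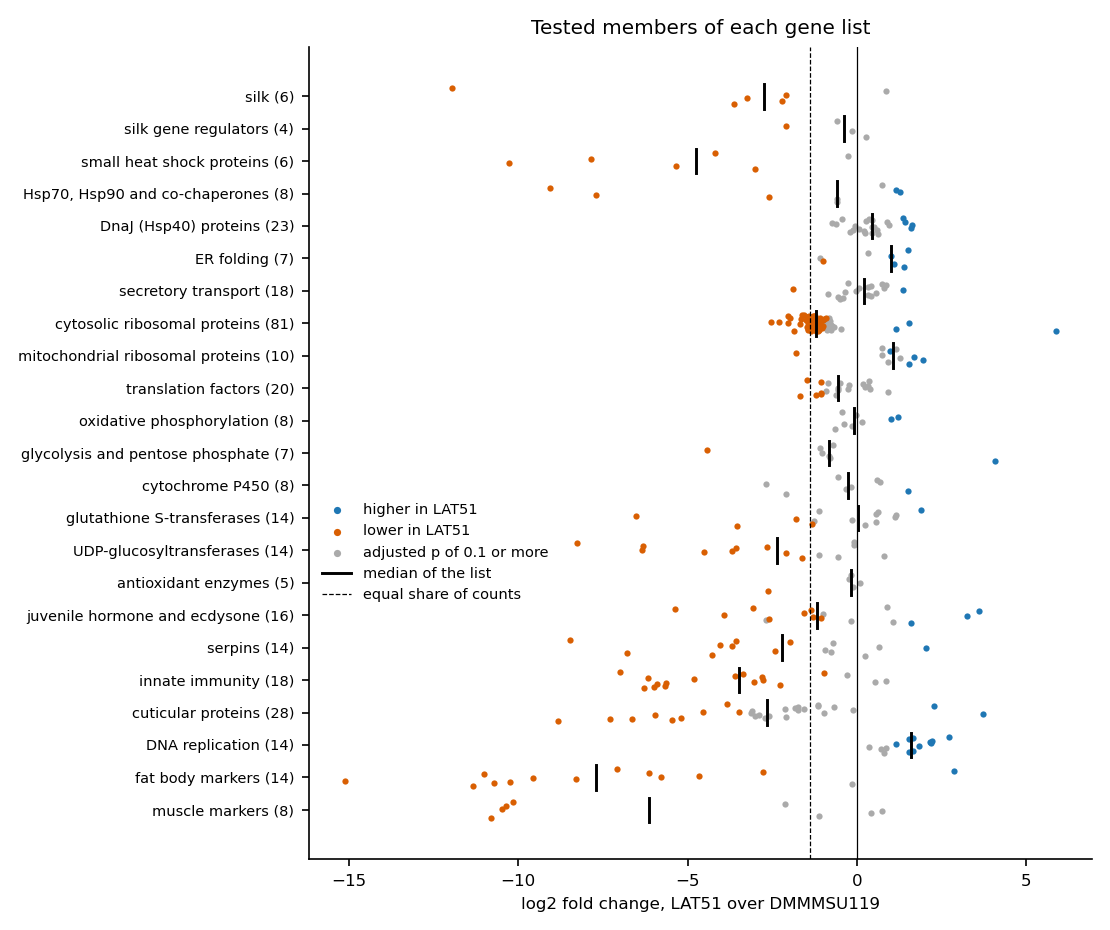
Log2 fold change of LAT51 over DMMMSU119 for every tested member of each list (number tested in brackets), coloured by call, with a bar at the list median and a dashed line at -1.39 for an equal share of counts. Small heat shock, immunity and fat body genes reach far to the left, all 14 DNA replication genes lie to the right of 0, and cytosolic ribosomal proteins crowd around the dashed line.

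The genes with the smallest adjusted p included small heat shock genes and CPH43, described above, and non-coding RNAs. LOC101745123, annotated as a long non-coding RNA, had 0.338, 0.163 and 0.443 CPM in LAT51, against 709, 834 and 737 CPM in DMMMSU119 (log2 fold change -11.27 ± 0.61, adjusted p = 9.51e-05). LOC101746050, also a long non-coding RNA, had 0.0845, 0.381 and 0.443 CPM in LAT51, against 1250, 4952 and 2525 CPM in DMMMSU119 (-13.20 ± 0.98, adjusted p = 0.000385). Both were nearly absent from every LAT51 library and abundant in every DMMMSU119 library. In the other direction LOC119630586, a protein-coding gene, had 113, 58.2 and 121 CPM in LAT51, against 3.32, 2.75 and 2.5 CPM in DMMMSU119 (5.09 ± 0.44, adjusted p = 0.000681). LOC101743803, also protein-coding, had 184, 145 and 474 CPM in LAT51, against 2.37, 5.71 and 1.72 CPM in DMMMSU119 (6.36 ± 0.74, adjusted p = 0.00225, and 5.56 without LAT51 replicate 4).

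A further set of called genes was at or near 0 in 1 strain. Of the lower genes 62 had at most 3 counts in each LAT51 library, 13 of them no count at all, and the median bound was 40.8-fold. Of the higher genes 58 had at most 3 counts in each DMMMSU119 library, 10 of them no count, and the median bound was 3.14-fold. LOC119630067 had 0, 0 and 0.296 CPM in LAT51, against 449, 478 and 467 CPM in DMMMSU119, at least 1621-fold lower (adjusted p = 0.000681). LOC101741687 had 9.55, 12.9 and 21 CPM in LAT51, against 0.237, 0.212 and 0 CPM in DMMMSU119, at least 24.2-fold higher (adjusted p = 0.00181). Strong decreases of near-silent genes thus reached larger bounds than strong increases.

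A selection of 22 genes was taken from those that the study names, which include others such as Jheh-lp2 and Cjhbp. Of these 22 genes 14 were tested, of which 6 were lower, 5 higher and 3 not called. LOC101738036 was among the 8 with too few counts to test. The rest of the 8 form a cluster that the study describes as upregulated in 1 replicate of the third strain. LOC101740965, which the study annotates as myrosinase 1, a glucosidase, had no counts in LAT51, against 48.6, 42.1 and 25 CPM in DMMMSU119, at least 135-fold lower (adjusted p = 0.000826). Its neighbour LOC101741105, with the same annotation, also had none in LAT51, against 4.98, 5.08 and 3.28 CPM in DMMMSU119, at least 15.5-fold lower (adjusted p = 0.00277). LOC101739591, annotated as pyrexia, a heat-gated ion channel in Drosophila, had 0.676, 0.652 and 1.77 CPM in LAT51, against 8.30, 10.4 and 8.74 CPM in DMMMSU119 (log2 fold change -3.22 ± 0.49, adjusted p = 0.00536). For these 3 genes every LAT51 library lay far below every DMMMSU119 library.

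Other genes of that set were higher in LAT51. LOC101739033, annotated as a zinc finger protein, had 18, 28.4 and 33.7 CPM in LAT51, against 0.474, 1.27 and 0 CPM in DMMMSU119 (log2 fold change 5.59 ± 0.76, adjusted p = 0.00358). LOC101740169, annotated as a tetraspanin, a membrane protein, had 24, 62.9 and 51.9 CPM in LAT51, against 0.237, 0 and 1.56 CPM in DMMMSU119 (6.08 ± 0.85, adjusted p = 0.00386). LOC105842878, annotated as peroxidase-like, had 671, 563 and 481 CPM in LAT51, against 295, 139 and 120 CPM in DMMMSU119 (1.63 ± 0.45, adjusted p = 0.0385), a call lost without LAT51 replicate 2 or DMMMSU119 replicate 2 or 4. All 3 were separated between strains, the first pair almost completely, and without DMMMSU119 replicate 4 LOC101739033 stood at 4.89 and LOC101740169 at 8.52. LOC101741524 was also higher (3.02 ± 0.73) and LOC105842960 lower (-2.04 ± 0.38, without passing by library size alone), while LOC119629954 (-1.70) and LOC105842393 (0.95, and 2.49 by library size alone, where it passed) did not pass the test. The sign of LOC119629954 is opposite to that in the study, which lists it as upregulated at CAR in a comparison that includes the third strain. These genes were picked by the study on libraries that include these, so their number is not independent evidence of a difference. The study also measured some of them, LOC105842393 included, by qPCR on RNA pooled from silkworms of each site, whose strains it does not name. It reports changes in the same direction as in its sequencing.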

How the data were processed

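Total RNA from dissected silk glands was enriched for mRNA and made into stranded libraries. The authors trimmed the reads (Trimmomatic 0.39, fastp 0.20.0), aligned them (HISAT2 2.1.0) and deposited whole-number counts per gene from featureCounts 1.4.6-p5. The study states that reads across several exons of 1 gene were counted once unless they overlapped another gene. The annotation and strand setting used for counting are not given in the sources used here. How reads from overlapping and antisense genes were assigned can therefore not be seen. The authors also deposited log2 values of counts divided by DESeq2 1.30.1 size factors plus 1, which entered only 1 alternative. Columns of the third deposited strain entered only the alternative over all 9 libraries.

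The counts of 6 libraries were filtered (filterByExpr), scaled by TMM and tested with edgeR 4.0.16 (quasi-likelihood, 1 factor, Benjamini-Hochberg adjustment, call at adjusted p under 0.1) in R 4.3.3. Standard errors are the absolute log2 fold change divided by the square root of F and are not given where a strain had at most 3 counts in each library. With 3 larvae per strain, the p-values cover the spread between these larvae and their libraries.

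Gene symbols are those of the count table. Of 16674 genes 14504 matched RefSeq assembly ASM3026992v2, used for synonyms, gene types and neighbours, with no coordinates because its build differs from that of the counts. The genes named are the 10 per direction with the smallest adjusted p among calls over 1 on the log2 scale whose groups do not overlap, the 5 per direction with the highest level among calls near 0 in the other strain, the 10 with the most counts, 22 of the genes that the study names, and members of 24 lists. Those members and lists were chosen with earlier results of these data known. DESeq2 1.42.0, limma 3.58.1, other scalings and filters, a replicate block and leaving out each library were the alternatives. Seroins, aminoacyl-tRNA synthetases, the proteasome and transposon-derived genes could not be matched by symbol and were not used here.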

Additional observations from a re-analysis of the deposited data

How the results depend on the processing

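The 2319 calls (1075 higher, 1244 lower) became 5249 (4757 higher, 492 lower) by library size alone and lay between 1004 and 2905 (310 to 1423 higher, 694 to 1482 lower) when 1 library was left out, lowest without LAT51 replicate 2 and highest without DMMMSU119 replicate 0. DESeq2's size factors gave 2322 (1025 and 1297), its Wald test 2709 (1018 and 1691), limma 2293 (1119 and 1174), no filter 2947 (1194 and 1753) and the model over all 3 strains 2891 (1383 and 1508). The replicate block gave 1885 (897 and 988), of which 1588 were shared; replicates 2 and 4 of the strains are different larvae whose deviations correlated at -0.154 and 0.038, so their numbers do not pair them. The silk share difference stayed between -19.6 and -13.9 points without any 1 library. Of 121 called genes named by the rules, 75 kept call and direction under all 15 alternatives. Library size alone reversed Hsp21.4 (1.09), Cdc37 (0.82), HSFd (0.87), Ero1 (0.39), Ef-1g (0.22), eIF3i (0.35) and GSTd3 (2.8e-05). The abundant loci LOC119630857, LOC110386648 and LOC119630858, which were not called except as higher by library size alone, ranged from -0.22, -0.23 and -0.17 without LAT51 replicate 2 to 0.47, 0.47 and 0.59 without LAT51 replicate 4. The cause of these shifts was not tested. Depth limits the near-silent genes, for which 3 counts set the bound.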

Other observations

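Genes of types other than protein-coding were also examined. All 18 tested genes annotated as ribosomal RNA were lower in LAT51 (median log2 fold change -2.75), and they held 0.440, 0.409 and 2.42% of the counts in LAT51, against 1.18, 3.15 and 4.86% in DMMMSU119, so LAT51 replicate 4 overlapped the DMMMSU119 range. The libraries were enriched for mRNA, and how well that step worked in each library was not tested. Of 194 tested long non-coding RNA genes 18 were higher and 38 lower (median log2 fold change 0.05). Among all genes tested 14.9% were higher and 17.3% lower. The type held 0.401, 0.461 and 0.438% of the counts in LAT51, against 2.81, 2.40 and 2.38% in DMMMSU119, with no overlap. LOC101737792, whose counts are near-equal to those of CPH43, alone held 0.0650, 0.0871 and 0.0961% in LAT51, against 2.39, 1.82 and 1.77% in DMMMSU119.

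Calls of 1 direction lay side by side in several places of the reference gene order. With 17.3% of genes tested lower and 14.9% higher, some short runs arise by chance, and their expected number was not computed. The longest run of adjacent tested genes was 13 ribosomal RNA genes, all lower. A run of 8 lower genes held the 30K genes Lp-c23, Lp-c12, Lp-c6 and LOC101735447, a run of 7 lower genes held RpS21 and the long non-coding RNA LOC101746050, and a run of 6 held LOC733093 and Hsp70. Runs of 5 lower genes included the one with Hsp19.9, Hsp20.8 and Hsp20.4 and the one with UGT33K1, LOC732962, UGT33D5 and UGT33D6, and a run of 4 held serpin-1 and serpin-28. The longest runs of higher genes had 4 members, and 1 of them ended with 6pgl.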
